A study of Mus musculus with 105 samples.

Results

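The nuclear-encoded subunits of the mitochondrial respiratory chain were followed through chemically induced liver cancer in mice. They were taken by gene symbol as every listed gene named as a subunit of complex I (Nduf with the letter a, b, c, s or v and a number), complex II (Sdha to Sdhd), complex III (Uqcr), complex IV (Cox4 to Cox8) or complex V (Atp5). This gave 81 of the 12966 genes listed, with 39 in complex I, 4 in complex II, 8 in complex III, 15 in complex IV and 15 in complex V. Symbols decide the complex here. Ndufa4, which is now counted with complex IV, therefore stands with complex I, and Cox7a2l, a factor that joins complexes III and IV into supercomplexes, stands with complex IV.

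The respiratory chain sits in the inner mitochondrial membrane and passes electrons from NADH, through complex I, and from succinate, through complex II, by way of ubiquinone to complex III, cytochrome c and complex IV, where oxygen is reduced. Complexes I, III and IV pump protons, and complex V, the ATP synthase, uses the returning protons to make ATP. Most subunits are encoded in the nucleus and imported, while the mitochondrial genome encodes central subunits of complexes I, III, IV and V. Hepatocytes are rich in mitochondria, and many liver tumours are known to shift towards glycolysis.

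Liver RNA was sequenced by MAPS, a method known to read polyadenylated RNA near its 3′ end, from mice given diethylnitrosamine (DEN), a carcinogen that produces liver tumours, at stages labelled 1m, 3m, 5m and 8m and given here as 1, 3, 5 and 8 months, and at 8 months tumour (8m_T) and non-tumour liver (8m_NT) were taken apart. All groups received DEN, the WT groups included, and the labels do not say whether months count age or time after DEN. Library titles begin with grp1 or grp2, called sequencing groups 1 and 2 here. The titles themselves do not say what this prefix stands for. Sequencing group 1 held 60 libraries, n = 4 per group, of WT, of IKO, labelled Ikk KO, and of SKO, labelled Shp2 KO (gene Ptpn11). Sequencing group 2 held 45 libraries, n = 3 per group, of WT, of BKO, labelled beta catenin KO (gene Ctnnb1), and of MKO, labelled cMet KO (gene Met). The study's title places the losses in hepatocytes, while RNA was taken from whole liver tissue. The Cre driver, the mouse strain and whether animals were pooled are not given in the sources used here. Below, WT1 and WT2 stand for WT of sequencing groups 1 and 2. IKO and SKO were both compared with the WT1 libraries, and BKO and MKO both with the WT2 libraries.

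Depth over the 12966 genes was 4676444 to 10863046 reads in the 60 libraries of sequencing group 1, and 6650086 to 20231121 reads in the 45 of group 2. All 13 hepatocyte markers measured were detected in every group. Over the non-tumour stages Ptpn11 was lower in SKO by −1.12 ± 0.08 (log2 difference ± SE, limma adjusted p = 6.18e-16), Ikbkb was lower in IKO by −0.32 ± 0.07 (0.00258) and Met was lower in MKO by −0.31 ± 0.07 (0.0118). Ctnnb1 stood at −0.01 ± 0.07 in BKO (adjusted p = 0.931), and since the deleted part of the gene is not given in the sources used here, reads at the 3′ end of its RNA do not check the label. The library labelled SKO 3m replicate 2 had 375.1 normalised reads of Ptpn11, against 107.1 to 159.3 in the remaining SKO 3m libraries and 350.1 to 387.7 in WT1 at 3 months, so results that rest on it are given with and without it. Because a bulk sample averages its cells, fewer cells of a type and less RNA per cell cannot be told apart. The labels number biological replicates without naming animals, so p-values measure the spread between these libraries, which may be technical.

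The members span a wide range of levels. Over all libraries 26 of the 81 had a median above 1000 normalised reads and 17 a median below 100. Reads come from the 3′ end of each RNA, so levels do not depend on gene length in the way whole-transcript reads do, but they still depend on which 3′ end is counted. The highest member of each complex was Ndufv3 (median 2715 normalised reads) in complex I, Sdha (1422) in complex II, Uqcrq (1859) in complex III, Cox6a1 (4985) in complex IV and Atp5a1 (7234), the alpha subunit of the F1 head, in complex V. At the low end stood isoforms known from tissues other than liver. The muscle isoform Cox6a2 had a median of 6.305 and was at 0 in 9 libraries, the testis isoform Cox6b2 a median of 4.794 and was at 0 in 12, and the oxygen-regulated Cox4i2 a median of 4.901 and was at 0 in 7. Ndufb4 and Ndufb4c were also at 0 in 1 library. Some members cannot be told from near-identical copies. Ndufb4 and Ndufb4c had identical values in every library and are 1 measurement, although each is counted as a member in all counts given here. Ndufb4c, Atp5h and Cox6a1 have a copy elsewhere whose last 300 bases match at 95% or more over at least 80% of the length, and Ndufa12-ps is a pseudogene.

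Many respiratory chain promoters are known to carry sites for NRF1, GABP (also called NRF2), YY1 and the oestrogen-related receptor ERRA. RefSeq (GRCm38.p6) promoter windows, 250 bases before to 50 after the start, were matched for 64 of the 81 members and for 27025 genes in all, and were searched on both strands. The NRF1 letters GCGCATGCG were found in 6 members (9.38%, against 1.95% of all genes): Atp5k, Cox6a1, Ndufa8, Ndufa11, Uqcr11 and Uqcrc1. The YY1 letters AAGATGGCG were found in 7 (10.9%, against 1.64%): Atp5j, Atp5j2, Ndufa9, Ndufc1, Ndufs4, Ndufs6 and Ndufs7. The GABP letters CCGGAAGT were in 5 (7.81%, against 4.31%): Atp5h, Cox8a, Ndufs3, Uqcr11 and Uqcrh. The ERRA letters TCAAGGTCA were found in 2 (3.12%, against 0.466%): Atp5g3 and Sdhd. A match describes these letters in this window, and is not evidence that the factor binds there. The 250 bases before the start are shown for 3 genes named in the tumour results. They are Cox6a1 (chr5:115348959-115349208, minus strand), lower in the tumours of 5 genotypes, Atp5h (chr11:115419920-115420169, minus strand), also lower in 5, and Cox7a2l (chr17:83514334-83514583, minus strand), higher in 4. Cox6c, lower in all 6, had no promoter entry in the sources used here. Cox6a1 and Atp5h have near-identical copies, as given above, so their reads may come in part from a copy. Each sequence reads 5′ to 3′ on the gene's own strand. Capitals mark the NRF1 letters in Cox6a1, where matches on both strands overlap, and the GABP letters, read from the opposite strand, in Atp5h, and the window of Cox7a2l holds none of the 4 motifs.
Cox6a1: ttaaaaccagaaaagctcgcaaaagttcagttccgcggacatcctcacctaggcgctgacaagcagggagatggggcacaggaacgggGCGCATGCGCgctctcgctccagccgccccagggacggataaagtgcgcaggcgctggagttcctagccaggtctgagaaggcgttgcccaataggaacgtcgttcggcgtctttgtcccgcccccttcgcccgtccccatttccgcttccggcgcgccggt
Atp5h: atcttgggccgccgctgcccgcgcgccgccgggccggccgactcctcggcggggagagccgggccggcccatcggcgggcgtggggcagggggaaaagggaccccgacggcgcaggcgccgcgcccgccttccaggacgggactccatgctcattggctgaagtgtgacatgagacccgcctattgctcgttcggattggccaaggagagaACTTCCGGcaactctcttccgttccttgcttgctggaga
Cox7a2l: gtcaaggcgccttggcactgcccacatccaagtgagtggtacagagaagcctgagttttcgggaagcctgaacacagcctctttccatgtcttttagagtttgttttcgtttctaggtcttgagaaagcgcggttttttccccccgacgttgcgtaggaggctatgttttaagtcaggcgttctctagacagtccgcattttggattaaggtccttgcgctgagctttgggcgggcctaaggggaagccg

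Tumour and non-tumour liver at 8 months were compared within each genotype. More subunits were lower in tumours than higher in all 6 genotype groups, while all genes together had medians near 0. In WT1, 40 of the 81 members were called at a limma adjusted p below 0.05, 5 higher and 35 lower, where 42.1% of all genes were called, 22.9% higher and 19.2% lower. IKO had 28 called, 10 higher and 18 lower (33.3% of all genes, 18.2% higher and 15.1% lower), and SKO 37, 8 higher and 29 lower (39.7%, 21.0% and 18.7%). WT2 had 31 called, 3 higher and 28 lower (27.1%, 15.0% and 12%), BKO 18, all lower (14.7% of all genes, 6.32% lower), and MKO 21, 4 higher and 17 lower (17.3%, 9.76% and 7.56%). On recovered reads (limma-voom) the IKO split was 6 higher of 26 called. The members' median log2 difference was −0.29 in WT1, −0.06 in IKO, −0.15 in SKO, −0.40 in WT2, −0.33 in BKO and −0.24 in MKO. Those counts lean lower more than the genes at large, yet the typical shift was modest, and the range within a genotype was wide, from −1.20 to 1.06 in SKO and from −0.98 to 0.93 in WT1.

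**Figure D1:**
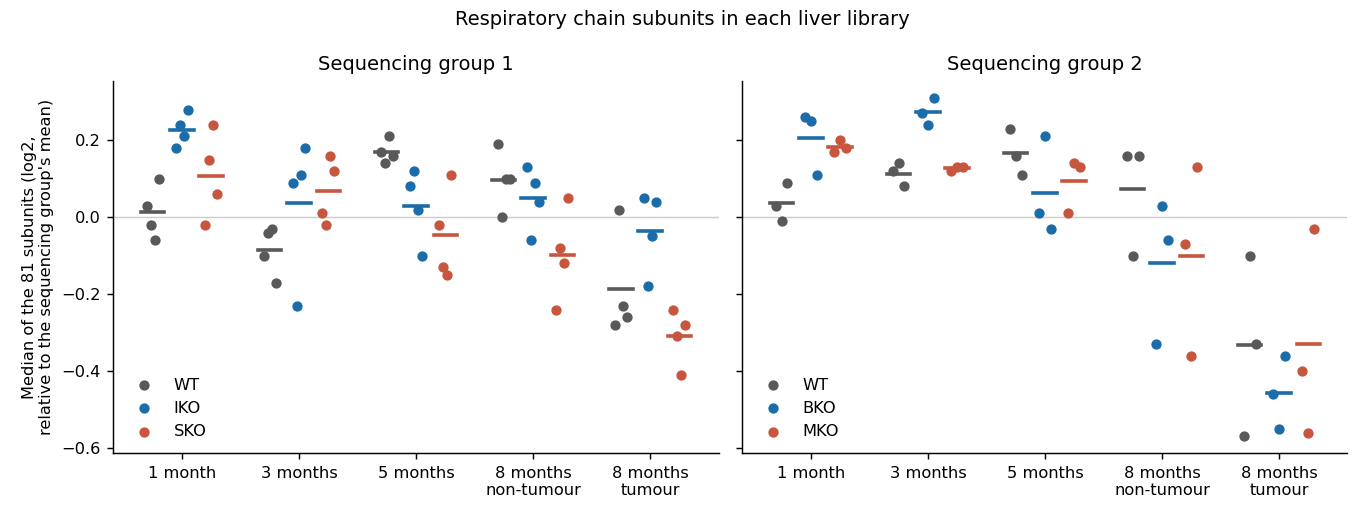
The median of the 81 subunits in each library, as a log2 difference from the mean of each subunit over its sequencing group, by stage and tissue; points are libraries and bars are group means. Tumour groups have the lowest mean of each genotype: in WT1 the 4 tumour libraries lie at −0.28 to 0.02 and the 4 libraries of 8-month non-tumour liver at 0.00 to 0.19.

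The spread between libraries of sequencing group 2 sets how firm its counts are. With only the groups of each comparison in the fit, WT2 had 3 members called, BKO 0 and MKO 1 (13.4%, 0.0925% and 0.632% of genes), so those calls lean on a spread pooled over all 15 groups of the sequencing group. Leaving out 1 library moved the WT2 count to 12 (without WT 8m_NT replicate 1 or replicate 3), 5 (without WT 8m_T replicate 1) or 50 (without WT 8m_T replicate 2). It moved the BKO count to 32 (without 8m_NT replicate 1), 2 (8m_NT replicate 2), 6 (8m_NT replicate 3 or 8m_T replicate 1) or 7 (8m_T replicate 2). It moved the MKO count to 10 (without 8m_NT replicate 1 or 8m_T replicate 2), 33 (8m_NT replicate 2 or 8m_T replicate 3), 9 (8m_NT replicate 3) or 8 (8m_T replicate 1). In BKO, where same-numbered tumour and non-tumour libraries deviated together, the blocked fit of its own groups called 5 (6.17% of members, where 8.81% of all genes were called). In sequencing group 1 no left-out library moved a count by over 1.5 times: WT1 stayed at 32 to 42, IKO at 21 to 26 and SKO at 33 to 36. Depth also differed between tissues. Every tumour library of WT2, BKO and MKO had more reads than the 8-month non-tumour libraries of its genotype (WT2 13846160 to 19749261 against 10521461 to 11087825). In SKO the order was reversed (4906429 to 5642179 in tumours against 6918379 to 10863046), and in WT1 and IKO the ranges overlapped. The part of depth in the tumour results was not tested.

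By complex, the ATP synthase and succinate dehydrogenase had the lowest medians in WT1. Complex V had 9 of its 15 members lower and 1 higher there (median −0.39), complex II 3 of 4 lower (−0.52), complex I 15 of 39 lower and 1 higher (−0.27), complex III 3 of 8 lower and 1 higher (−0.21), and complex IV 5 of 15 lower and 2 higher (−0.25). In WT2 the medians were closer together, from −0.37 (complexes I and V) to −0.48 (complex II). IKO tumours had the shallowest medians, with −0.10 for complex I, −0.23 for II, −0.05 for III, 0.10 for IV and −0.09 for V. SKO ranged from −0.05 (complex IV) to −0.23 (complex II), BKO from −0.21 (IV) to −0.55 (II) and MKO from −0.10 (III) to −0.40 (V). Complex IV had called members in both directions in 5 of the 6 genotypes, and the higher ones include the low-level isoforms described below.

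**Figure D2:**
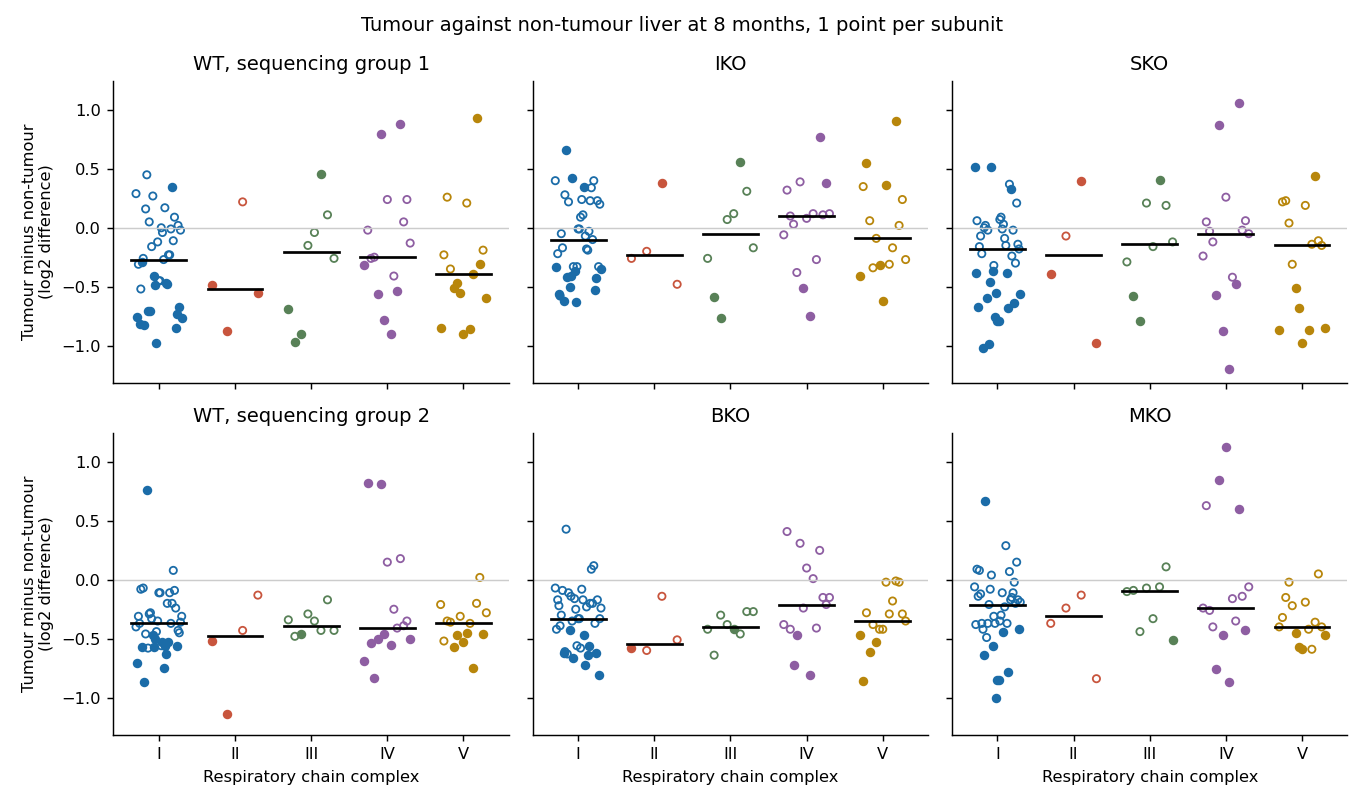
Tumour minus non-tumour log2 difference of each subunit at 8 months, by complex and genotype; filled points were called at an adjusted p below 0.05, open points were not, and bars are medians. Bars lie below 0 in every panel and complex except complex IV of IKO (0.10).

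Some lower calls recurred across genotypes. Of the 81 members, 26 were called lower in at least 3 of the 6 genotypes (32.1%, against 13.7% of all genes), 14 in at least 4 (17.3%, against 7.87%) and 7 in at least 5 (8.64%, against 4.53%). In all 6, the share was 1.23% of members (Cox6c alone) against 2.16% of all genes. Calls in at least 4 genotypes rest in part on WT2, BKO or MKO. With only the compared groups in the fit, these had 3, 0 and 1 members called. Below 0 in all 6, called or not, were 41 members (50.6%, against 19.5%), and above 0 in all 6 were 4 (4.94%, against 23.8%): Cox6a2, Cox6b2, Cox7a2l and Ndufa4l2. The tumour effects of the 81 members correlated at a Pearson r of 0.83 to 0.91 between genotypes of sequencing group 1, 0.55 to 0.67 within sequencing group 2 and 0.24 to 0.62 across the sequencing groups. These are descriptions over 81 genes, which are not independent, and within a sequencing group the libraries may share their sequencing or mouse cohort.

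Cox6c, a small nuclear subunit of cytochrome c oxidase (complex IV), was lower in the tumours of every genotype, and in each the tumour and non-tumour libraries did not overlap. In WT1 it had 528.1, 425.0, 471.6 and 467.9 normalised reads in non-tumour liver and 337.5, 177.2, 220.7 and 247.3 in tumours. In SKO it had 361.7, 540.9, 539.4 and 523.0 in non-tumour liver and 216.8, 198.5, 159.4 and 213.9 in tumours. The SKO difference was the deepest, at −1.20 ± 0.16 (adjusted p = 4.1e-08, to 0.435 of the non-tumour level on the transformed scale), and that of WT1 was −0.90 ± 0.16 (1.08e-05). IKO stood at −0.75 ± 0.16 (0.00032), BKO at −0.81 ± 0.18 (0.00171), MKO at −0.87 ± 0.18 (0.000869) and WT2 at −0.55 ± 0.18 (0.0182). In WT2, where the fall was least, non-tumour libraries had 696.1, 615.2 and 736.1 reads and tumours 342.0, 537.5 and 517.6.

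Cox7a2l, the supercomplex factor, went the opposite way to most members of complex IV. WT1 non-tumour libraries had 20.23, 29.23, 18.76 and 33.52 normalised reads and tumours 65.96, 53.06, 78.12 and 62.72, with no overlap. SKO had 29.73, 19.73, 18.71 and 31.9 against 70.03, 72.45, 101.5 and 63.1 in tumours, again without overlap. The differences were 0.88 ± 0.20 in WT1 (adjusted p = 0.000275), 1.06 ± 0.20 in SKO (1.8e-05) and 0.77 ± 0.20 in IKO (0.00188), where the IKO groups overlapped. In MKO it was higher by 0.60 ± 0.18 (0.0218), carried by a tumour library at 73.2 beside libraries at 30.41 and 32.4, with 11.26, 26.08 and 28.72 in non-tumour liver. BKO (0.25 ± 0.18, adjusted p = 0.403) and WT2 (0.18 ± 0.18, 0.505) did not pass the test. Its levels are low, and on the transformed scale a difference of so few reads is understated.

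**Figure D3:**
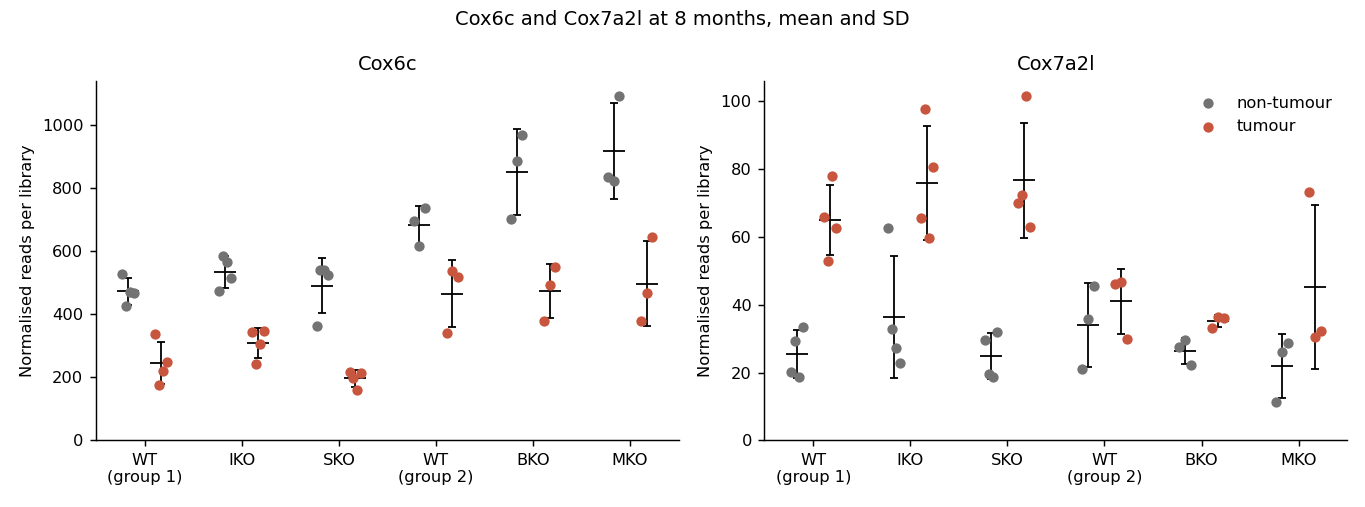
Normalised reads per library of Cox6c and Cox7a2l at 8 months in non-tumour liver and tumours of the 6 genotypes; points are libraries, and bars are the mean and SD (n = 4 in sequencing group 1, n = 3 in sequencing group 2). Tumour points of Cox6c lie below all non-tumour points of their genotype, and those of Cox7a2l lie above in WT1 and SKO.

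Other isoforms of complex IV are given beside their partners, and the difference between partners was not tested. Cox6a1, the form of Cox6a found in liver, was lower in WT1 (−0.56 ± 0.17, adjusted p = 0.00743), SKO (−0.57 ± 0.17, 0.00644), WT2 (−0.50 ± 0.15, 0.0118), BKO (−0.47 ± 0.15, 0.0332) and MKO (−0.76 ± 0.15, 0.000733), and stood at −0.38 in IKO (0.0843). Its muscle partner Cox6a2 was higher in WT1 (0.80 ± 0.24, 0.00613), SKO (0.87 ± 0.24, 0.00304), WT2 (0.81 ± 0.23, 0.00759) and MKO (0.85 ± 0.23, 0.00905). In WT1, Cox6a2 had 5.324, 4.871, 0 and 8.044 reads in non-tumour liver and 10.74, 20.02, 12.4 and 25.33 in tumours, which does not overlap but remains far below Cox6a1. Cox6b1 was lower in 5 genotypes, most in SKO (−0.88 ± 0.12, 5.08e-08), while Cox6b2 was higher in MKO alone by the test (1.13 ± 0.24, 0.00124), from 5.197, 2.608 and 1.305 reads to 25.42, 35.47 and 14.26. Cox4i1, the main form of Cox4, was lower in 2 genotypes, and Cox4i2 was higher in WT2 (0.82 ± 0.30, 0.0359), where 1 tumour library at 76.99 stood above 15.83 and 10.16 and the non-tumour libraries had 6.701, 6.392 and 9.264. Cox7a1, the heart and muscle form, was not called in any genotype, and its partner Cox7a2 was called lower in 2.

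In complex I the accessory subunits Ndufa3 and Ndufb10 recurred in 5 genotypes. Ndufa3 had 761.3, 757.5, 738.3 and 706.5 normalised reads in WT1 non-tumour liver and 332.9, 581.6, 341.0 and 398.1 in tumours, a difference of −0.83 ± 0.15 (adjusted p = 1.29e-05). In SKO its libraries had 634.2, 735.0, 841.0 and 687.0 against 348.8, 322.9, 353.1 and 337.0, or −1.02 ± 0.15 (2.9e-07). The groups did not overlap in either genotype. It was also lower in IKO (−0.62), WT2 (−0.87) and BKO (−0.62), and MKO stood at −0.42 ± 0.17 (0.081) with overlap. Ndufb10 was lower by −0.41 in WT1, −0.37 in SKO, −0.57 in WT2, −0.66 in BKO and −0.56 in MKO. Ndufb2 had the lowest value of the complex in WT1 (−0.98 ± 0.13, 1.62e-08) and was lower in IKO (−0.63) and SKO (−0.76), but not in sequencing group 2 (−0.44, −0.25 and −0.37, adjusted p = 0.0655, 0.377 and 0.16). Ndufs1, a catalytic iron-sulfur subunit, was lower in SKO (−0.68 ± 0.14, 9.53e-05), BKO (−0.56 ± 0.15, 0.00945) and MKO (−0.78 ± 0.15, 0.000527). In the WT and IKO tumours it stood at −0.23 (WT1), −0.11 (WT2) and −0.03 (IKO), none of which passed.

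Against the run of complex I, Ndufa4l2, a paralog of Ndufa4 known to be induced by low oxygen, was higher in IKO (0.66 ± 0.25, adjusted p = 0.0364), WT2 (0.76 ± 0.22, 0.00881) and MKO (0.67 ± 0.22, 0.0312). In WT2 it had 27.64, 21.57 and 25.27 normalised reads in non-tumour liver and 112.9, 50.52 and 28.69 in tumours, without overlap. Ndufa4 was called lower in MKO (−0.64) and was above 0 in WT1 (0.16) and IKO (0.28), not called. The core subunit Ndufs3 was higher in WT1 (0.35) and SKO (0.33), and Ndufa9, an accessory subunit, in IKO (0.42) and SKO (0.52) but lower in WT2 (−0.47). Of all members, 4 were called lower in some genotype and higher in another (Ndufb8, Ndufa9, Atp5j and Cox7c), a share of 4.94% against 0.956% of all genes. In all 4 the higher call was in sequencing group 1 and the lower call in sequencing group 2. MKO tumours had 2 deep values of complex I, Ndufb3 at −1.0 ± 0.20 (0.000867), from 133.4, 157.8 and 163.2 reads to 62.02, 72.33 and 55.08, and Ndufb4 (with Ndufb4c) at −0.85 ± 0.19 (0.00162). For Ndufb3 these groups did not overlap. In MKO non-tumour liver both genes stood above WT2, as given below, Ndufb3 by 0.63 over the non-tumour stages and Ndufb4 at 8 months. Between MKO and WT2 tumours 0 members were called.

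Complex II, succinate dehydrogenase, joins the chain to the citric acid cycle. Its catalytic flavoprotein Sdha was lower in WT1 (−0.49 ± 0.16, adjusted p = 0.00987), SKO (−0.39 ± 0.16, 0.0457), WT2 (−0.52 ± 0.18, 0.0299) and BKO (−0.58 ± 0.18, 0.0279), with no overlap in any of these, and stood at −0.26 in IKO (0.219) and −0.37 in MKO (0.166). Its iron-sulfur subunit Sdhb was lower in the WT tumours of both sequencing groups. WT1 had 1005, 807.4, 925.8 and 1121 normalised reads of Sdhb in non-tumour liver and 636.6, 524.6, 302.6 and 652.6 in tumours, a difference of −0.88 ± 0.16 (1.87e-05) without overlap. WT2 had 1339, 1034 and 1422 against 512, 1041 and 315, or −1.14 ± 0.26 (0.00101) with overlap. No knockout passed for Sdhb, with −0.20 in IKO (0.358), −0.07 in SKO (0.773), −0.60 in BKO (0.114) and −0.24 in MKO (0.575). The difference in the tumour effect itself, knockout minus WT, was 0.68 ± 0.23 in IKO (0.295), 0.81 ± 0.23 in SKO (0.136), 0.54 in BKO (0.838) and 0.90 ± 0.36 in MKO (0.331), so a difference between knockout and WT was not shown. The membrane anchors moved apart in SKO, where Sdhd was lower (−0.98 ± 0.19, 4.25e-05) and Sdhc higher (0.40 ± 0.15, 0.0272).

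In complex III, Uqcrb, a subunit near the ubiquinone site, had 172.5, 210.7, 198.3 and 148.8 normalised reads in WT1 non-tumour liver and 87.43, 115.1, 79.36 and 65.14 in tumours, without overlap. It was lower in WT1 (−0.90 ± 0.17, adjusted p = 3.25e-05), SKO (−0.79 ± 0.17, 0.00024), IKO (−0.77 ± 0.17, 0.000432) and WT2 (−0.46 ± 0.16, 0.0338). Uqcr11 was lower in WT1 (−0.97 ± 0.17, 8.15e-06), IKO (−0.59) and SKO (−0.58). Of the 2 large core proteins, Uqcrc1 was not called in any genotype and Uqcrc2 only in BKO, lower (−0.42 ± 0.15, 0.0449). The Rieske iron-sulfur protein Uqcrfs1, which carries electrons to cytochrome c1, was higher in WT1 (0.46 ± 0.13, 0.00278), IKO (0.56 ± 0.13, 0.000431) and SKO (0.41 ± 0.13, 0.00718), and stood at −0.43, −0.46 and −0.06 in WT2, BKO and MKO, where it did not pass.

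In complex V, lower members lay in the F1 head, the stalk and the membrane part. Atp5h, subunit d of the peripheral stalk, had 1093, 953.6, 1065 and 919.7 normalised reads in WT1 non-tumour liver and 481.6, 644.7, 507.2 and 478.9 in tumours. In SKO it had 727.3, 857.5, 984.1 and 868.0 against 401.3, 458.3, 361.0 and 461.7. The differences were −0.90 ± 0.12 (adjusted p = 6.77e-09) and −0.98 ± 0.12 (9.82e-10), without overlap, and Atp5h was also lower in IKO (−0.62), WT2 (−0.53) and MKO (−0.59), while BKO stood at −0.42 (0.0774). Atp5a1, the alpha subunit of the F1 head, was lower in WT1 (−0.85 ± 0.12, 5.35e-08), SKO (−0.87 ± 0.12, 3.57e-08), IKO (−0.41) and BKO (−0.47). Atp5b, the catalytic beta subunit, was called in 1 genotype, lower in BKO (−0.86). Of the genes for the c ring, Atp5g1 was lower in 5 genotypes (−0.45 to −0.53) and stood at −0.09 in IKO (0.737). Atp5g3 was lower in 4 (−0.32 to −0.68) and stood at −0.31 in WT2 (0.198) and −0.42 in BKO (0.104). Atp5md, a small membrane subunit, went the other way in sequencing group 1, at 0.93 ± 0.17 in WT1 (7.82e-06), 0.91 ± 0.17 in IKO (2.31e-05) and 0.44 ± 0.17 in SKO (0.0312).

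The tumour effect of WT1 was set against that of WT2 in 1 fit over both sequencing groups, a comparison added after the data were seen. Of the 81 members 5 differed, 4 with a higher and 1 with a lower effect in WT1, where 2.32% of all genes did (1.51% higher, 0.81% lower). Atp5md had 118.2, 94.99, 134.0 and 115.3 normalised reads in WT1 non-tumour liver and 162.6, 357.4, 284.0 and 209.9 in tumours, but 40.21, 30.36 and 54.74 against 32.08, 29.22 and 37.05 in WT2, a difference in effect of 1.14 ± 0.26 (adjusted p = 0.00719). Uqcrfs1 had 176.7, 171.7, 174.2 and 170.3 against 190.2, 332.4, 229.4 and 258.1 in WT1, and 139.0, 139.0 and 199.6 against 85.97, 149.1 and 102.8 in WT2, a difference of 0.89 ± 0.22 (0.0162). In both genes the WT1 tumours lay above all WT1 non-tumour libraries and the WT2 groups overlapped. Ndufb8 (0.73 ± 0.20, 0.0258), Ndufa9 (0.75 ± 0.22, 0.0456) and Atp5a1 (−0.64 ± 0.19, 0.0484) were the others. With only these 4 groups in the fit 0 were called, and leaving out 1 library gave 2 (WT1 8m_NT replicate 2 or WT2 8m_T replicate 1), 3 (WT1 8m_NT replicate 3 or WT2 8m_T replicate 3), 1 (WT1 8m_T replicate 2) or 0 (WT2 8m_NT replicate 3). Sequencing group and mouse cohort cannot be told apart in this comparison.

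No member's tumour effect differed between a knockout and its WT by limma's test, in any of the 4 knockouts. At an unadjusted p below 0.05 there were 8 members in IKO, 8 in SKO, 2 in BKO and 9 in MKO. Of the 12966 genes, 1081, 1443, 919 and 1353 were below the same limit. Limma-voom on the recovered reads also called 0 members in each, and of all genes 0.123%, 0.0308%, 0.0308% and 0.131% were called by limma. The MKO count was 1 without WT 8m_T replicate 2. Between tumours, IKO had 2 members above WT1 tumours (3.6% of genes called, 2.48% higher). Sdhb had 720.7, 788.7, 791.7 and 955.5 normalised reads in IKO tumours, all above the 636.6, 524.6, 302.6 and 652.6 of WT1 tumours, or 0.64 ± 0.16 higher (adjusted p = 0.0158), and Ndufa10, an accessory subunit of complex I, was higher by 0.31 ± 0.09 (0.0446). With only the tumour groups in the fit neither passed, and the count was 1 without IKO 8m_T replicate 1, WT 8m_T replicate 1 or replicate 4, 5 without IKO 8m_T replicate 2, and 0 without IKO 8m_T replicate 4 or WT 8m_T replicate 3. SKO, BKO and MKO tumours had 0 members called against WT tumours by limma and by limma-voom (1.72%, 0.548% and 4.03% of genes), with 13, 3 and 2 at an unadjusted p below 0.05. Of the 12966 genes, 1804, 1421 and 2212 were below that unadjusted limit. Without WT 8m_T replicate 3 the SKO count was 1, and without MKO 8m_T replicate 3 the MKO count was 2.

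Genes of neighbouring steps of mitochondrial metabolism were measured in the same tumours. Of all genes, 19.2% were called lower in WT1 tumours, 15.1% in IKO and 18.7% in SKO. In WT2, BKO and MKO tumours the shares were 12%, 6.32% and 7.56%. Whether a list had more lower calls than genes at large was not tested, so its counts alone show no excess. Of the 7 RNAs measured from the mitochondrial genome, all were lower in tumours in WT1 (median −0.86) and SKO (−1.16), 5 in IKO (−0.94), 3 in WT2 (−0.75), 2 in MKO (−0.65) and 0 in BKO (−0.46). COX1, the catalytic subunit of complex IV, fell by 1.31 ± 0.15 in WT1 (limma adjusted p = 2.38e-10). Of 19 citric acid cycle genes, 12 were lower and 2 higher in WT1 (median −0.52), and 12 lower and 2 higher in SKO (−0.40). The counts were 8 lower and 3 higher in IKO, 5 and 1 in WT2, 5 and 0 in BKO, and 8 and 0 in MKO. Examples are citrate synthase Cs, lower by −0.99 ± 0.17 in SKO (2.81e-06) and −0.78 ± 0.15 in WT2 (0.000185), and Suclg1, a subunit of succinyl-CoA synthetase, which was higher in WT1 by 1.12 ± 0.15 (1.37e-08). Of 51 assembly factors 14 were lower and 2 higher in WT1, 7 and 3 in IKO, 16 and 5 in SKO, 8 and 1 in WT2, 3 and 0 in BKO, and 5 and 1 in MKO. Higd2a, a complex IV assembly factor, was lower in WT1 (−0.89 ± 0.12, 3.47e-08), IKO (−0.80), SKO (−1.01), WT2 (−0.91) and MKO (−0.72).

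Among 17 genes of ubiquinone synthesis, cytochrome c and electron transfer flavoprotein, 5 were lower and 3 higher in WT1, 6 and 3 in SKO, 1 and 3 in IKO, 4 and 0 in WT2, 6 and 0 in BKO, and 3 and 0 in MKO. Coq8a, needed for ubiquinone synthesis, was lower in WT1 (−1.34 ± 0.25, limma adjusted p = 2.09e-05), SKO (−1.05 ± 0.25, 0.000636), WT2 (−1.22 ± 0.28, 0.00125), BKO (−0.99 ± 0.28, 0.0151) and MKO (−1.05 ± 0.28, 0.0088). Of 22 regulators of mitochondrial gene expression 8 were lower and 3 higher in WT1, 7 and 3 in IKO, 4 and 2 in SKO, 4 and 0 in WT2, 1 and 0 in BKO, and 2 and 0 in MKO. The coactivator Ppargc1b was lower in WT1 (−1.29 ± 0.24, 1.2e-05), WT2 (−1.10 ± 0.27, 0.00191), IKO (−0.75 ± 0.24, 0.0104) and MKO (−0.85 ± 0.27, 0.0237), and Yy1, whose letters were searched above, was lower in WT1 (−0.96 ± 0.16, 1.97e-06), IKO (−0.71) and SKO (−0.52). Gabpa, the DNA-binding subunit of GABP, was lower in WT1 (−0.51), IKO (−0.58) and SKO (−0.72). The 22 genes of mitochondrial import, pores, carriers and chaperones had 6 higher and 6 lower in WT1 (median 0.08), and 0 higher and 2 lower in WT2 (−0.13). The counts of these lists, too, were not tested against the shares of all genes.

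Other cell markers moved in the same tumours. Proliferation markers (8 measured, with 7, 4, 5, 8, 2 and 0 called higher in WT1, IKO, SKO, WT2, BKO and MKO) summed to 71.01 to 154.2 normalised reads in WT1 non-tumour liver and 401.7 to 773.8 in tumours, and to 67.38 to 124.6 and 229 to 763.8 in WT2. Stellate and fibroblast markers (12 measured) had 9, 3, 7, 5, 2 and 7 called higher in the same order, and 2 lower in all but MKO, which had 0. Cholangiocyte markers (8 measured) had 5, 3, 3, 3, 0 and 2 higher. Hepatocyte markers (13 measured) moved both ways, with 4, 4, 5, 4, 3 and 4 higher and 5, 3, 4, 6, 4 and 3 lower, and their summed level was 383600 to 821200 in WT1 non-tumour liver and 1655000 to 2131000 in tumours, with tumour libraries above all non-tumour libraries in each of the 6 genotypes. No marker of these lists was at 0 in every library of an 8-month group. Their part in the subunit results was not tested.

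In non-tumour liver, averaged over 1, 3, 5 and 8 months, few subunits differed between a knockout and WT. IKO had 4 called, 3 higher and 1 lower (9.04% of all genes, 3.87% higher and 5.17% lower). Among them Sdha (0.24 ± 0.08, adjusted p = 0.0411) and Uqcrc1 (0.23 ± 0.07, 0.0175) were higher and Ndufa6 lower (−0.23 ± 0.06, 0.00923). The count was 8 without IKO 8m_NT replicate 2 or WT 3m replicate 4. SKO had 12 called, 3 higher and 9 lower (22.9% of genes, 12% higher and 10.9% lower), or 10 without the doubted library and 7 without SKO 8m_NT replicate 2. The higher share moved with the scale, with 4 higher of 11 called under quantile normalization and 2 of 14 by limma-voom. Ndufa13, a membrane subunit of complex I also called Grim19, led with −0.38 ± 0.06 (5.55e-07), then Sdhb with −0.40 ± 0.08 (0.000197), and at 5 months Sdhb had 1100, 999.2, 1104 and 1479 normalised reads in SKO and 1597, 1892, 1983 and 1812 in WT1, without overlap. The further lower calls were Ndufa11, Ndufa12, Ndufb2, Ndufb10, Ndufc1, Uqcr11 and Atp5e (−0.19 to −0.25). Ndufs1 (0.26 ± 0.07, 0.00516), Ndufa2 (0.18) and Atp5pb (0.17) were higher. In SKO livers 12 of 15 macrophage markers were higher and 8 of 13 hepatocyte markers lower over the same stages, and their part in these results was not tested.

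BKO had 4 members called in non-tumour liver, 3 higher and 1 lower (19.6% of genes, 10.6% higher and 9.04% lower). Ndufs1 was higher by 0.39 ± 0.08 (adjusted p = 0.000304), Ndufc2 by 0.35 ± 0.09 (0.00424) and Cox6a2 by 0.58 ± 0.11 (0.000379), and Ndufb11 was lower (−0.24 ± 0.08, 0.032). Cox6a2 lay above WT2 in every library at each stage, with 16.3, 14.39 and 8.384 normalised reads in BKO and 6.563, 6.591 and 7.29 in WT2 at 1 month, and 8.287, 10.24 and 10.14 against 0.8427, 1.77 and 1.311 at 5 months. Under quantile normalization the BKO count was 7, all higher, in place of 3 higher and 1 lower. In the same comparison 10 of 12 stellate and fibroblast markers, 8 of 15 macrophage markers and 6 of 8 cholangiocyte markers were higher, and their part in these results was not tested. MKO had 3 called, all higher (2.71% of genes, 1.58% higher): Ndufb3, an accessory subunit of complex I, by 0.63 ± 0.10 (0.000335), Cox6a1 by 0.28 ± 0.08 (0.0331) and Cox6c by 0.31 ± 0.09 (0.0486). Ndufb3 had 111.5, 91.45 and 99.33 reads in MKO and 41.34, 67.11 and 78.74 in WT2 at 1 month, and 133.4, 157.8 and 163.2 against 77.06, 104.7 and 86.75 at 8 months, and the groups did not overlap at any stage. The MKO count fell to 1 without any of MKO 1m replicate 1, 3m replicate 3, 5m replicate 1 or 8m_NT replicate 3, or WT 1m replicate 1, 3m replicate 3, 5m replicate 2, 5m replicate 3 or 8m_NT replicate 1, and was 5 without WT 1m replicate 3.

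The difference from WT was also tested for variation over the 4 non-tumour stages. The difference between SKO and WT1 varied with stage for 27 of the 81 members, 33.3%, where 5.68% of all genes did (limma's F test of the stage interaction). Complex V held 13 of them out of its 15 members, complex I 8 of 39, complex III 4 of 8, complex IV 2 of 15 and complex II 0 of 4. Of the 27, 24 were above WT at 1 month and 26 at 3 months, 24 were below WT at 5 months and 20 at 8 months, and 21 had their lowest value at 5 months. Ndufb4 and Ndufb4c, with the same values, are both among them. Fitted differences above 0 at 1 and 3 months and below 0 at 5 and 8 months, called or not, were found for 28 members in SKO, but also for 26 in IKO, 41 in BKO and 17 in MKO, so that order of signs was not particular to SKO. IKO shares its WT libraries with SKO, and BKO with MKO. The level in WT1 itself moved over these stages, with the members' median in the 4 libraries at −0.17 to −0.03 at 3 months and 0.14 to 0.21 at 5 months, and its part in the differences was not tested. The count was 27 without the doubted library and 18 to 34 as each library in turn was left out, but 12 under quantile normalization (14.8%, with 3.68% of all genes). IKO (28 members at an unadjusted p below 0.05), BKO (14) and MKO (3) had 0 called by limma and by limma-voom, with 0.0694%, 0.663% and 0.339% of all genes called. Below that unadjusted limit stood 1731, 1970 and 1796 of the 12966 genes.

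**Figure D4:**
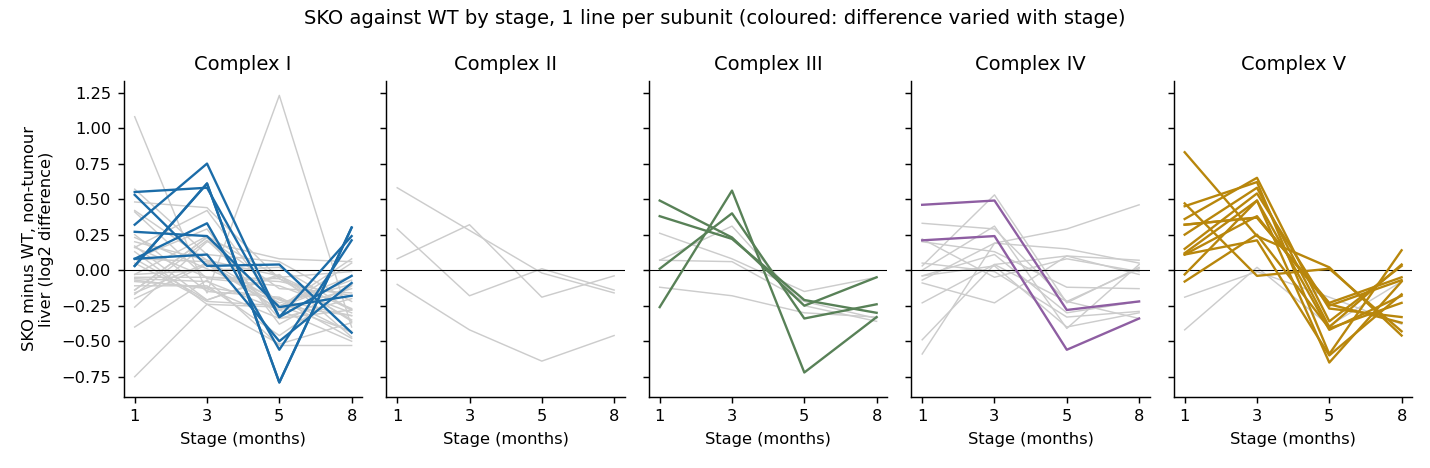
SKO minus WT log2 difference of each subunit in non-tumour liver at 1, 3, 5 and 8 months, by complex; coloured lines are the 27 subunits whose difference varied with stage, grey lines the rest. Most coloured lines of complex V lie above 0 at 3 months and below 0 at 5 months; the grey complex I line at 1.08 (1 month) and 1.23 (5 months) is the pseudogene Ndufa12-ps.

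At 1 month 15 members differed between SKO and WT1, 13 higher and 2 lower (16.1% of all genes called, 8.74% higher and 7.34% lower), with a members' median of 0.08. The higher members included Ndufs1, Ndufv1, Ndufa4 and Ndufa9, the flavoprotein Sdha, Uqcrc1 and Uqcrc2 of complex III, Cox7a2, and Atp5b, Atp5c1, Atp5d and Atp5pb of complex V. Ndufs1 had 385.7, 422.6, 367.2 and 418.9 normalised reads in SKO and 235.7, 244.1, 275.7 and 303.6 in WT1, without overlap, or 0.55 ± 0.14 higher (adjusted p = 0.00486). Atp5b had 3032, 3843, 3680 and 2985 in SKO and 2317, 1088, 2095 and 2386 in WT1, or 0.83 ± 0.22 higher (0.00604). Uqcrc2 was higher by 0.49 ± 0.12 (0.00313) and Sdha by 0.58 ± 0.16 (0.00841). Ndufa13 was lower, with 689.8, 732.2, 850.4 and 728.3 against 1046, 1023, 908.7 and 1025 (−0.40), as was Ndufa4l2 (−0.75). The count was 9 under quantile normalization, 4 without WT 1m replicate 2, the lowest WT1 library for Atp5b, 8 without SKO 1m replicate 2 and 7 without SKO 1m replicate 3.

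IKO livers, compared with the same WT1 libraries, had 13 members called at 1 month, all higher (9.17% of all genes called, 4.42% higher), with a members' median of 0.20. Ndufs1 had 402.8, 433.6, 442.4 and 469.9 normalised reads in IKO, all above the 235.7 to 303.6 of WT1, or 0.67 ± 0.14 higher (adjusted p = 0.00155). Uqcrc2 (0.54 ± 0.12, 0.00279), Uqcrc1 (0.58 ± 0.13, 0.00324), Atp5b (0.82 ± 0.22, 0.0111) and Sdha (0.57 ± 0.16, 0.016) were higher, and Sdha had 1613, 1553, 1511 and 1483 reads in IKO against 1095, 797.8, 1076 and 1190. Others were Ndufa9, Ndufb9, Ndufv1, Cox7a2, Atp5c1, Atp5d and Atp5md (0.35 to 0.63). Beside them 7 of 19 citric acid cycle genes were higher and 0 lower, led by malate dehydrogenase Mdh2 (0.72 ± 0.15, 0.00196), and no hepatocyte or macrophage marker was called. The count was 6 under quantile normalization and 2 without WT 1m replicate 2. In SKO at 1 month 7 citric acid cycle genes were also higher and 0 lower, among them Mdh2 (0.95 ± 0.15, 1.27e-05) and Idh2 (1.14 ± 0.19, 1.36e-05), as were 7 of 17 electron carrier genes. There, 6 of 13 hepatocyte markers were lower, with a summed level of 298300 to 399200 in SKO against 737000 to 959300 in WT1, and their part in the result was not tested.

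At 3 months SKO had 14 members called, all higher (5.19% of all genes called, 2.99% higher), and 8 were of complex V. Atp5pb, subunit b of the peripheral stalk, had 2303, 2211, 3285 and 3434 normalised reads in SKO and 1699, 1808, 1821 and 1672 in WT1, or 0.65 ± 0.13 higher (adjusted p = 0.000919). Ndufa2, an accessory subunit of complex I, had 1184, 1204, 1662 and 1948 against 860.0, 988.7, 862.1 and 744.7, or 0.75 ± 0.13 (0.000144). Atp5a1 had 14420, 14370, 16170 and 17020 against 9267, 9881, 11480 and 10770, or 0.58 ± 0.12 (0.00161). None of these overlapped, and in all 3 SKO replicates 3 and 4 stood above replicates 1 and 2. The count was 4 without SKO 3m replicate 3 or replicate 4, 8 without WT 3m replicate 2 and 7 without WT 3m replicate 4, and it was 14 without the doubted library, replicate 2. With only the SKO and WT1 3-month libraries in the fit 0 were called (0.162% of genes), and under quantile normalization 7. Ndufs1 (0.58), Ndufv2, Uqcrb (0.56), Cox7a2 (0.49), Cox7c (0.53), Atp5g3 (0.49), Atp5k (0.54), Atp5o (0.38), Atp5md (0.62), Atp5j2 (0.49) and Atp5c1 (0.37) were the remaining calls.

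At 5 months the direction was the opposite. SKO had 16 members called, all lower (6.02% of all genes called, 3.41% lower), with 7 in complex I, 6 in complex V and 1 each in complexes II, III and IV, and a members' median of −0.25. Uqcrb had 60.82, 40.35, 35.52 and 73.77 normalised reads in SKO and 131.5, 86.04, 88.48 and 95.67 in WT1, or −0.72 ± 0.17 (adjusted p = 0.00678), where at 3 months it had 88.86, 89.31, 98.49 and 103.3 in SKO and 52.91, 82.77, 52.88 and 43.31 in WT1 (0.56 ± 0.17, 0.0478). Neither stage overlapped. Atp5j2, subunit f of the membrane part, had 284.2, 198.6, 222.6 and 355.5 against 452.0, 410.1, 442.4 and 385.7 at 5 months (−0.65 ± 0.15, 0.00507). Atp5a1, Atp5g3, Atp5j2, Atp5md and Uqcrb were the 5 members called higher at 1 or 3 months and lower at 5 or 8 months. How many of all genes had such calls was not counted, so an excess among the members was not shown. Ndufa13 (−0.53 ± 0.11, 0.00199) and Sdhb (−0.64 ± 0.16, 0.0122) were lower at 5 months too, and the rest were Ndufa6, Ndufa11, Ndufa12, Ndufb3, Ndufb4 with Ndufb4c, Cox6a1, Atp5h and Atp5j (−0.41 to −0.79). All 7 RNAs of the mitochondrial genome were also lower (median −0.70), with ND5 at −0.81 ± 0.18 (0.0025).

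The 5-month count was 8 under quantile normalization and 3 with only the SKO and WT1 5-month libraries (5.64% of genes). It was 10 without SKO 5m replicate 1 or WT 5m replicate 2, 8 without SKO 5m replicate 2, WT 5m replicate 1 or WT 5m replicate 3, and 6 without SKO 5m replicate 3. At 5 months 3 of 13 hepatocyte markers were lower in SKO, with a summed level of 449800 to 705700 against 969500 to 1071000 in WT1, and no macrophage marker was called. The part of the hepatocyte markers in the subunit results at 1 month and at 5 months was not tested. At 8 months SKO non-tumour liver had 4 members called (5.03% of genes, 2.49% lower), Ndufa13 (−0.53 ± 0.11, adjusted p = 0.00221), Ndufb9 (−0.44), Ndufs7 (−0.47) and Ndufb10 (−0.48), all lower. Ndufa13 there had 610.4, 755.8, 750.8 and 779.7 normalised reads in SKO and 1103, 929.2, 1040 and 1158 in WT1, without overlap. That count was 1 without SKO 8m_NT replicate 1, 2 or 3 or WT 8m_NT replicate 1 or 3, 2 without WT 8m_NT replicate 4, and 13 without SKO 8m_NT replicate 4, and 9 of 15 macrophage markers were higher in the same libraries.

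The remaining stages gave few calls. IKO had 0 at 3 months and 0 at 8 months (0.201% of genes each, and 0 by limma-voom), with 7 and 3 members at an unadjusted p below 0.05. Of the 12966 genes, 931 and 813 were below that unadjusted limit. At 5 months IKO had 3 (1.45% of genes, 0.486% higher and 0.964% lower), Cox6b2 higher by 0.85 and Ndufa6 (−0.52) and Ndufa13 (−0.42) lower. It was 1, and lower, under quantile normalization and by limma-voom, but 1, and higher, with only the compared groups in the fit. This count was 1 in 5 of the 8 leave-one-out fits (IKO 5m replicate 1 or 4, WT 5m replicate 1, 2 or 4) and 0 without WT 5m replicate 3. BKO had 0 at 1 month and 3 months (4.37% and 1.54% of genes by limma), and 0 by limma-voom. At an unadjusted p below 0.05 BKO had 6 and 9 members there, and 2375 and 1634 of the 12966 genes. It had Atp5c1 lower at 5 months (6.44% of genes, 2.93% lower) by −0.49 ± 0.15 (adjusted p = 0.0392). That call was lost without BKO 5m replicate 1 or 3 or any WT 5m replicate. With only the compared groups in the fit 1 member was called at 5 months, and it was higher. At 8 months BKO had Ndufb11 lower (−0.62 ± 0.16, 0.0198) and Cox8a lower (−0.49 ± 0.15, 0.0455), where 4.91% of genes were called and 1.76% lower, and Ndufb11 had 573.4, 740.3 and 673.7 normalised reads in BKO against 1155, 866.9 and 1093 in WT2, without overlap. Leaving out any BKO 8m_NT replicate or WT 8m_NT replicate 2 gave 1 call, and leaving out WT 8m_NT replicate 1 or 3 gave 0.

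MKO had 0 at 1, 3 and 5 months (0.185%, 0.0231% and 0.0463% of genes by limma), and 0 by limma-voom. At an unadjusted p below 0.05 MKO had 9, 3 and 6 members there, and 1082, 981 and 1214 of the 12966 genes. At 8 months Ndufb4, with Ndufb4c, was higher (5.74% of genes called, 3.51% higher; 0.71 ± 0.19, adjusted p = 0.0231), at 51.11, 71.71 and 78.97 normalised reads in MKO and 26.8, 35.16 and 33.69 in WT2, without overlap. In a fit of these 2 groups with the replicate number as a block, in which the numbers paired the libraries, 0 were called, as in the fit without the block. The count was 0 without MKO 8m_NT replicate 2 or WT 8m_NT replicate 1, and 6 without MKO 8m_NT replicate 3. The members' medians were 0.20, 0.15, −0.17 and −0.07 in IKO at 1, 3, 5 and 8 months, 0.16, 0.20, −0.15 and −0.19 in BKO, and 0.15, 0.01, −0.07 and −0.15 in MKO.

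WT livers of the 2 sequencing groups differed in the level of some subunits. The mean log2 level over the non-tumour stages differed by more than 1 for 15 of the 81 members (18.5%), where 3.86% of all genes did, with 9 higher and 6 lower in WT2. The members' median difference was 0.25, against 0.01 for all genes. Cox5b, a subunit of complex IV, had a median of 93.88 normalised reads in WT1 (41.2 to 153.3) and 605 in WT2 (368.3 to 770.9), a log2 difference of 2.36. Atp5j2 had 405.1 (233.4 to 707) and 2255 (1897 to 2799), or 2.41, and Uqcr11 had 372.9 and 1775, or 2.20. The ranges of Cox5b and Atp5j2 did not overlap. In the other direction, Ndufa6 had 724.1 (462.5 to 1318) and 151.8 (109.1 to 192.1), or −2.16, and Ndufv2, a core subunit of complex I, 4102 (2739 to 6448) and 1181 (956.5 to 1535), or −1.79. Sequencing group and mouse cohort cannot be told apart, and knockouts were compared only with WT of their own sequencing group.

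**Figure D5:**
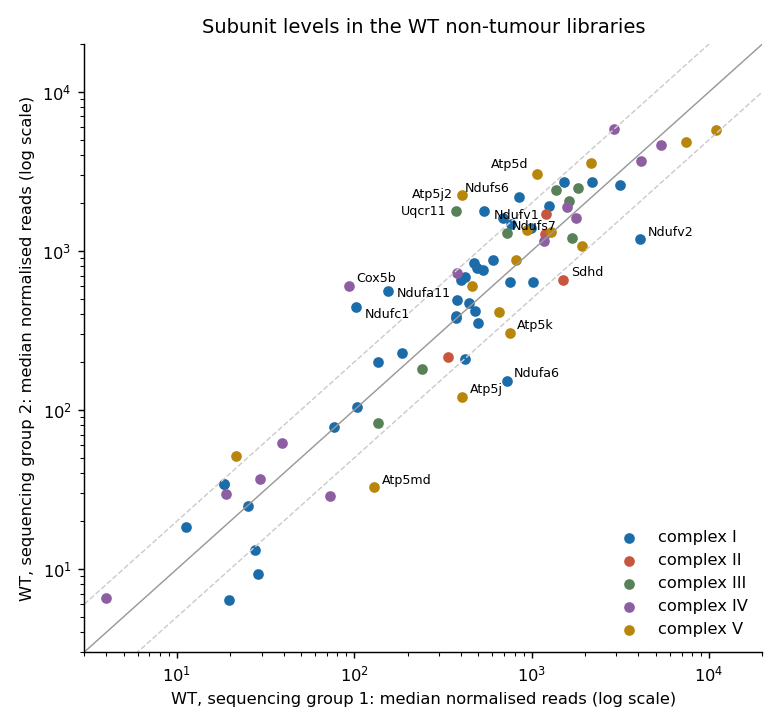
Median normalised reads of each subunit in the WT non-tumour libraries of sequencing group 1 (horizontal) and sequencing group 2 (vertical), both on log axes; the solid line marks equal levels, dashed lines a 2-fold difference, and names mark the 15 subunits whose mean transformed levels differ by more than 1. Cox5b lies far above the diagonal and Ndufa6 far below it.

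The median of the 81 subunits in each library was set beside the medians of the neighbouring lists. Over the 60 libraries of sequencing group 1 its Pearson r was 0.81 with the assembly factors, 0.73 with the citric acid cycle genes, 0.57 with the electron carriers, 0.51 with the mitochondrially encoded RNAs and 0.17 with the regulators. Over the 45 libraries of sequencing group 2 the values were 0.92, 0.85, 0.93, 0.76 and 0.39. In the non-tumour libraries alone the values in the same order were 0.68, 0.49, 0.32, −0.035 and −0.32 in sequencing group 1 (48 libraries), and 0.78, 0.59, 0.88, 0.45 and 0.15 in sequencing group 2 (36 libraries). For the mitochondrial content genes r was 0.64 and 0.83 over all libraries of sequencing groups 1 and 2, and 0.5 and 0.59 in non-tumour libraries. With the ribosomal protein genes of the cytosol, a list outside mitochondria, r was −0.28 and −0.47 over all libraries and 0.52 and 0.24 in non-tumour libraries. With the number of reads r was 0.35 and −0.77 over all libraries and 0.064 and −0.42 in non-tumour libraries. These are descriptions, since libraries of 1 group share genotype, stage and tissue.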

How the data were processed

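Libraries were made from liver RNA of DEN-treated mice, 105 in 30 groups of genotype, stage and tissue. Per the submitters' processing notes the tools were STAR 2.7.10a, HTSeq 2.0.2 and DESeq2 1.32.0 with GRCm38/mm10. The authors deposited log2 values of read counts after a variance-stabilising transform, with a floor of 3.8289 for 0 reads. Undoing the transform gave normalised reads, and 100.0% of values under 1000 reads were whole, within 0.05, after rescaling. Differences are on the transformed log2 scale, which understates changes of low genes. Depth was 4676444 to 20231121 reads per library without molecular identifiers, so counting error is a lower limit.

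Each sequencing group was fitted apart with limma 3.58.1 (R 4.3.3), 1 mean per group, a mean trend and Benjamini-Hochberg adjustment over all 12966 genes, called below 0.05, with no filter. The fit was tested on simulated data. Alternatives were a minimum mean of 6, quantile normalization, a replicate block, limma-voom on recovered reads, the compared groups only, and leaving out each library. Same-numbered libraries deviated together (every pair's correlation over 0.1) in BKO tumours against non-tumour liver (0.226 to 0.329) and in MKO against WT at 8 months (0.124 to 0.303).

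The members, lists and tests were chosen with earlier results of these data known. Named were, per comparison and complex, up to 3 called members each way by smallest adjusted p, the highest member, tissue isoforms, members against the run of their complex, all called members where 12 or fewer were, and up to 3 genes per pathway list. Members named in full at further stages, and the members with values per library, were chosen after their values were seen. Pathway and marker lists were assembly factors, electron carriers, regulators, mitochondrially encoded, citric acid cycle and mitochondrial content genes, and markers of hepatocytes, macrophages, stellate cells, endothelium, cholangiocytes, T and NK cells, B and plasma cells, neutrophils, erythroid cells, brown fat and muscle, and proliferation. Counts cover all 81 members, and some called members are not reported here by name.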

Additional observations from a re-analysis of the deposited data

Results flagged for a closer look

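In groups of 4 libraries, a library was singled out where its gap to the nearest other was too large a share of the group's whole range (Dixon's test at its 95% critical value). Each test took 1 measure in 1 group, for some of the members and for the median of all members. Of 210 such tests, 9 singled out a library. Chance gives about 1 in 20, so that number is no excess. The pseudogene Ndufa12-ps had 720.8 normalised reads in SKO 1m replicate 3, against 13.38, 5.315 and 16.15 in the rest of that group, and 527.5 in SKO 5m replicate 1, against 10.62, 9.473 and 4.837. These were the widest gaps, and the gene was not called. Libraries lower than the rest of their group were Cox6c in SKO 8m_NT replicate 1 (361.7), Sdhb in IKO 8m_NT replicate 2 (833.7), and Ndufb4 in SKO 1m replicate 4 (8.498). Sdhb in WT1 3m replicate 3 (1323) and Ndufa3 in SKO 3m replicate 4 (911.5) stood above theirs. Tumour library WT1 8m_T replicate 2 stood above the other 3 for Atp5h (644.7) and for the median of all 81 members (0.02, where the others lay at −0.28 or just above).

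Differences between groups were singled out by their own test in 2 cases. The SKO difference varied with stage for 27 members by limma's F test, and the tumour effect of WT1 differed from that of WT2 for 5 members by limma's test of the difference.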

How the results depend on the processing

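Counts of members called moved by over 1.5 times as follows, and the cause was not tested. Some of these fits held fewer libraries. By limma-voom, BKO at 8 months had 1 and IKO at 5 months 1. With a minimum mean of 6, MKO at 8 months had 1. With only the groups of the comparison, tumour counts were 3 in WT2, 0 in BKO and 1 in MKO, IKO had 1 at 5 months and 0 in tumours, SKO had 0 at 3 months, 3 at 5 and 1 at 8, BKO had 1 at 1 month, 2 at 3 and 0 at 8, MKO had 0 at 8 months and 7 over non-tumour stages, and WT1 against WT2 had 0. Under quantile normalization IKO had 6 at 1 month, 1 at 5 and 1 in tumours, SKO had 9 at 1 month, 7 at 3, 8 at 5, 1 at 8 and 12 by the F test, BKO had 0 at 5 months, 1 at 8 and 7 over non-tumour stages, and WT1 against WT2 had 8. As each library was left out, tumour counts ranged over 32 to 42 in WT1, 21 to 26 in IKO, 33 to 36 in SKO, 5 to 50 in WT2, 2 to 32 in BKO and 8 to 33 in MKO. IKO ranged over 3 to 8 in non-tumour stages, 2 to 15 at 1 month, 0 to 2 at 5 and 0 to 5 in tumours. SKO ranged over 7 to 13, 4 to 14, 4 to 14, 6 to 18 and 1 to 13 in non-tumour stages and at 1, 3, 5 and 8 months, 0 to 1 in tumours and 18 to 34 by the F test. BKO ranged over 3 to 5, 0 to 1 at 5 months and 0 to 1 at 8, MKO over 1 to 5, 0 to 6 at 8 months and 0 to 2 in tumours, its difference in tumour effect over 0 to 1, and WT1 against WT2 over 0 to 6.

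With the replicate number as a block over all groups, MKO had 5 over non-tumour stages, the only count that moved by over 1.5 times, and SKO had 28 by the F test. With the block and only the compared groups, BKO tumours had 5 called and MKO at 8 months 0. Of 341 results for named members, the side of the threshold and direction were unchanged for 338 under the block over all groups, 323 by limma-voom, 266 under quantile normalization and 249 with only the compared groups, and none reversed direction. With 3 or 4 libraries a group and members below 10 reads, small differences could not be detected.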
